A study of Mus musculus with 15 samples.

Results

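Glycolysis and hypoxia response genes were followed in mammospheres, which are balls of mammary cells grown without attachment, after MET and Wnt pathway inhibitors. The set was chosen by symbol and holds 33 genes: 22 for sugar and lactate transport and the enzymes of glycolysis, and 11 other genes of the response to low oxygen. Of these, 31 were measured, among 18193 genes in all: 20 glycolysis genes and all 11 other hypoxia genes. Gpi1 and Eno1 have no probe set annotated to them alone and were not analysed here. All 31 had a mean level over the 15 arrays above 5.33, the level that bounds the lowest 30% of all genes.

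The cells came out of mammary gland tumours that arose in FVB/N mice of the genotype WAPCre-DNbcatn;HGF, whose Cre transgene carries the promoter of a milk protein gene, and all groups share this genotype. HGF, which stands in its name, is the ligand of the MET receptor. Spheres grew for 7 days and were then treated for 24 h, and 250 ng of total RNA went onto each Affymetrix array. A first set held 3 PHA, 3 ICG and 3 DMSO arrays, and a second set held 3 PHA+ICG and 3 DMSO arrays, DMSO being the vehicle. By general knowledge and not by the labels, PHA is short for an inhibitor of the MET kinase and ICG for an inhibitor of transcription driven by β-catenin, and no dose is given. Nothing in the labels ties replicates to separate animals or cultures. The p-values thus reflect array-to-array spread alone, possibly of technical origin, and the number of arrays limits the precision.

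Glycolysis turns glucose into pyruvate, which is either reduced to lactate and exported or passed to the mitochondria. When oxygen is low, the α subunits of the hypoxia-inducible factors (HIF) escape the prolyl hydroxylases that mark them for destruction, join Arnt and bind short hypoxia response elements. Most glycolytic enzymes and glucose transporters are known HIF targets, as are the angiogenic factor Vegfa and the membrane carbonic anhydrase Car9. In tumours and in sphere cultures oxygen can run short in the centre, and rapidly growing tumour cells use much glucose.

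The core of the hypoxia response element is written here as ACGTG or GCGTG, counted on both strands. Promoter windows of 300 bases, 250 before to 50 after the annotated start, came from RefSeq on the mouse build GRCm38.p6 and covered 31 of the 33 genes with 45 windows. At least 1 of the cores stood in 36 of the 45 windows (80.0%), against 43.8% of all 32851 promoter windows. ACGTG was found in 55.6% of the 45 windows, against 19.6% of all, and GCGTG in 57.8%, against 32.4%. A match of 5 letters is common and describes the window only, and base composition was not matched between the windows. The E-box CACGTG, whose last letters are also the core ACGTG, was in 11.1% of the 45 windows, against 7.15% of all. The ATF4 composite element TGATGNAA was in 0 of the 45 windows, against 3.97% of all.

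The promoters shown are those of genes that responded most often among the hypoxia genes and the enzymes of the lower pathway. Ankrd37, an ankyrin repeat protein gene known as a HIF target, and Car9 were lower with PHA and with ICG. Ldhb, which encodes the heart-type subunit of lactate dehydrogenase, had the largest change with ICG among the lower enzymes. Ndrg1 also belongs to this group and is named only. Capitals mark the hypoxia response element cores, and each sequence reads 5′ to 3′ on the strand of its gene. Their positions on GRCm38.p6 are chr8:45999801-46000100 on the minus strand for Ankrd37, chr4:43506776-43507075 on the plus strand for Car9 and chr6:142507908-142508207 on the minus strand for Ldhb.
Ankrd37: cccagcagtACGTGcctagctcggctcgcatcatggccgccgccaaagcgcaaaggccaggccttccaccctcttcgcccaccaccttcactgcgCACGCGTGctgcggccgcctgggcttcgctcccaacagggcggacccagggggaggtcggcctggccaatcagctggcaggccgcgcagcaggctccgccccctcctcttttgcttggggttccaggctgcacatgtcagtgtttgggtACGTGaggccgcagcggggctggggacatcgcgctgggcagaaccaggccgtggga
Car9: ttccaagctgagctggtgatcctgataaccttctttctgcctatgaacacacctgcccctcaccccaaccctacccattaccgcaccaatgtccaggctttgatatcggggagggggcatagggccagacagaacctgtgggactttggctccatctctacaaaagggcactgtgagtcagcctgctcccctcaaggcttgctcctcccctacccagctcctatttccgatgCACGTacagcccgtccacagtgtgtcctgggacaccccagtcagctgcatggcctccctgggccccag
Ldhb: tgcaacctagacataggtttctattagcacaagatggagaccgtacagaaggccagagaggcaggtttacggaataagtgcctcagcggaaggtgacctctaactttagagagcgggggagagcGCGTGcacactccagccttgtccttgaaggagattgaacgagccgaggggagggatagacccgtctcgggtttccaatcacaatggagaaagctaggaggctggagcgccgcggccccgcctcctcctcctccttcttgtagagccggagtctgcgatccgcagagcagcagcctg
The Ankrd37 window holds 4 cores, which begin at -241, -155, -152 and -6 from the start, the pair in the middle overlapping on opposite strands. Car9 has a single core, at -18 on the strand opposite to the gene. In Ldhb the single core begins at -126.

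The 2 sets of arrays differed in their spread and in the level of leukocyte, fibroblast and proliferation markers. The median residual SD over all genes was 0.236 in the second set, against 0.107 in the first, on the log2 scale. Array 1 of the second set stood apart from arrays 2 and 3 in both of its groups. All 10 epithelial markers lay above the level of 5.33, and so did all 10 fibroblast and all 10 leukocyte markers. The mean of the leukocyte markers was 6.63 to 8.60 in PHA+ICG and 7.57 to 9.79 in second-set DMSO, against 10.14 to 10.30 in PHA, 9.40 to 9.79 in ICG and 10.36 to 10.83 in first-set DMSO. The mean of the fibroblast markers was 11.95 to 12.21 in second-set DMSO, against 10.51 to 11.12 in first-set DMSO. For the proliferation markers it was 8.59 to 8.72, against 7.29 to 8.29. Fewer cells of a type and less RNA per cell cannot be told apart in such bulk samples. Each treatment was therefore compared with DMSO of its own set, with the spread of that set alone.

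**Figure D1:**
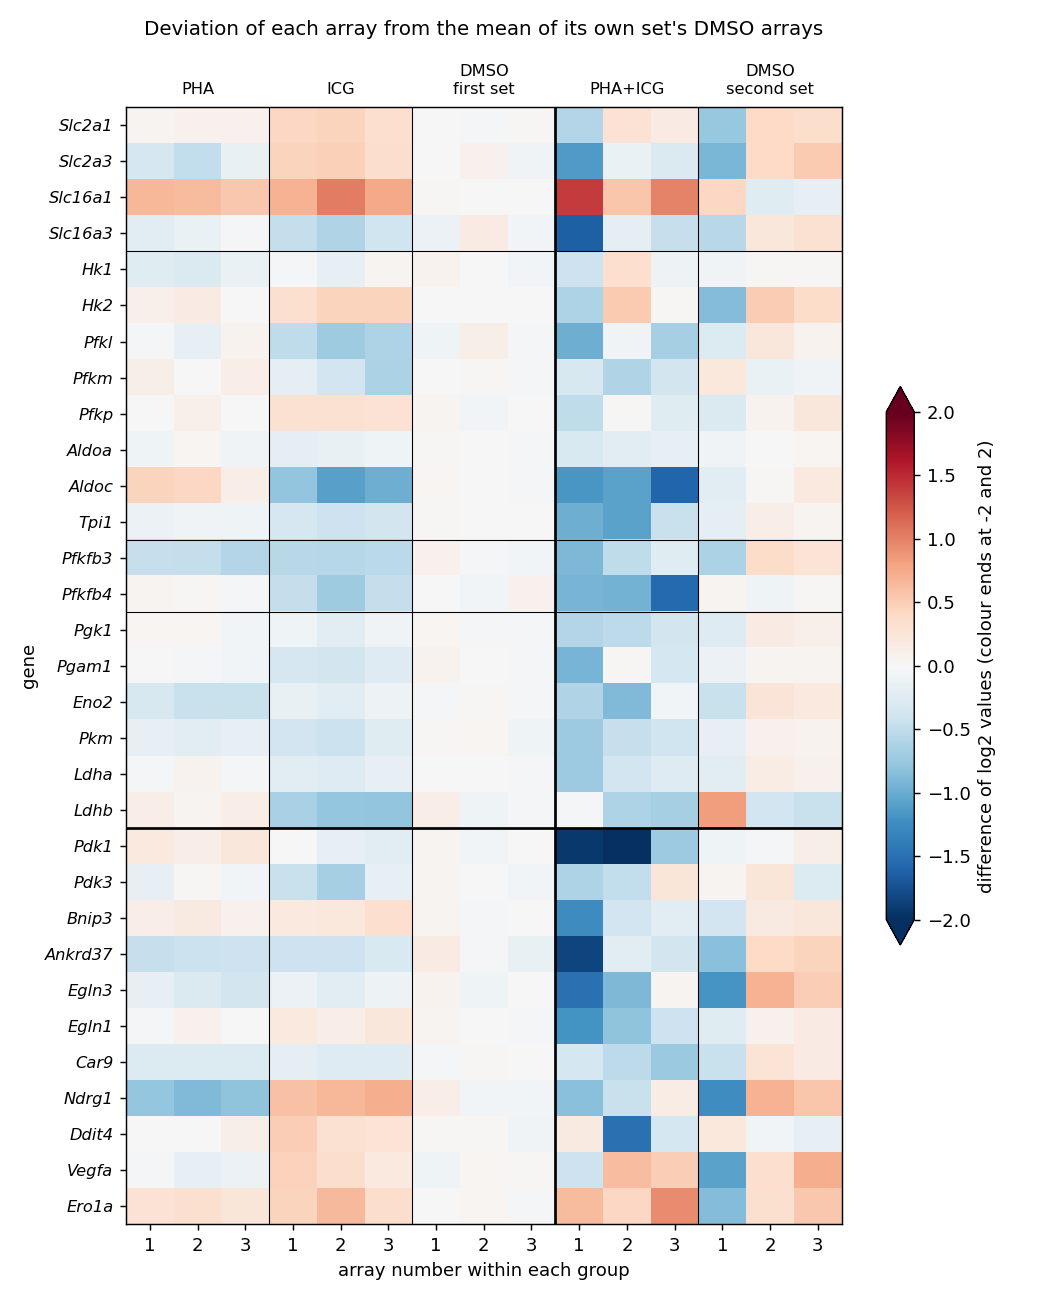
Difference between each array's log2 value and the mean of the 3 DMSO arrays of its own set, for the 31 measured genes (rows) and 15 arrays (columns). The thick horizontal line separates the 20 glycolysis genes, above, from the 11 other hypoxia genes. In the first set the arrays of a group look alike, whereas in the second set array 1 differs from arrays 2 and 3 within both groups.

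PHA changed 8 of the 31 genes, of which Ndrg1 fell most and the lactate transporter gene Slc16a1 alone rose. A gene was called where limma's Benjamini-Hochberg adjusted p over all 18193 genes was under 0.05. With PHA 1 of the 31 was called higher, where 3.14% of all genes were. Lower calls numbered 7, where 7.07% of all genes were lower. Among the 12735 genes brighter than the dimmest 30%, to which all 31 belong, 766 were higher and 1470 lower. Tested among these, 3 of the 31 were higher and 7 lower. After quantile normalization 3 of the 31 were higher and 5 lower, and the split over all genes was 826 higher and 1094 lower, against 572 and 1286. The genes called lower were Ndrg1, Pfkfb3, Ankrd37, Eno2, Slc2a3, Egln3 and Car9, and the gene called higher was Slc16a1. The median of the 31 log2 fold changes was -0.03, against 0.02 over all genes. The median size of change, regardless of sign, was 0.11 in the set and 0.11 over all genes.

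Ndrg1, a gene induced by low oxygen and by other stress, changed most with PHA. Its log2 values were 9.92, 9.81 and 9.89 in the PHA arrays, against 10.82, 10.63 and 10.63 in DMSO. The groups did not overlap, and Ndrg1 fell by 0.82 ± 0.07 (SE) on the log2 scale with PHA, or 1.77-fold (adjusted p = 0.000157). Its 4 other probe sets above the dimmest 30% moved the same way.

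Ankrd37 was at 8.18, 8.21 and 8.22 with PHA, against 8.81, 8.62 and 8.49 in DMSO, and fell by 0.44 ± 0.08 (adjusted p = 0.00792). Car9, which hydrates carbon dioxide at the cell surface, was at 6.50, 6.49 and 6.50 with PHA and at 6.73, 6.79 and 6.78 in DMSO. All PHA arrays lay below all DMSO arrays for both genes. The fall of Car9 was 0.27 ± 0.05 (adjusted p = 0.0138), a call that remained in 4 of the 6 fits that left out 1 array. Egln3, a prolyl hydroxylase that HIF itself induces, had 8.71, 8.59 and 8.51 with PHA and 8.95, 8.80 and 8.88 in DMSO. It was called lower by 0.27 on the log2 scale (adjusted p = 0.0395), in 1 of those 6 fits only.

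The glycolysis genes called with PHA were a pair of transporters, a regulator enzyme and an enolase. Slc16a1, which carries lactate across the membrane, was at 11.13, 11.10 and 11 with PHA and at 10.48, 10.46 and 10.45 in DMSO. It rose by 0.61 ± 0.09, or 1.53-fold (adjusted p = 0.00197). Slc2a3, a glucose transporter with high affinity, was at 7.56, 7.41 and 7.75 with PHA and at 7.90, 7.98 and 7.83 in DMSO. The call of its lower level (-0.33 ± 0.09, adjusted p = 0.0417) was kept in 1 of the 6 fits that left out 1 array, and the other bright probe set of the gene differed by -0.09. Pfkfb3 makes the sugar bisphosphate that activates phosphofructokinase, and was at 10.32, 10.31 and 10.20 with PHA, against 10.86, 10.76 and 10.73 in DMSO. That probe set fell by 0.50 ± 0.06 (adjusted p = 0.00107), while the gene's other probe set above the dimmest 30% differed by 0.09 the other way. Eno2, an enolase best known from neurons, was at 9.43, 9.31 and 9.30 with PHA and 9.73, 9.77 and 9.73 in DMSO, a fall of 0.40 ± 0.06 (adjusted p = 0.00317).

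None of the 8 measured enzymes between glucose phosphorylation and triose phosphate was called with PHA by limma. An unadjusted p under 0.05 was found for 2 of the 8, and for 4634 of all 18193 genes. Aldoc, an aldolase, had the largest difference of these (0.33 ± 0.10, adjusted p = 0.0610) and Hk1, a hexokinase, was next (-0.23 ± 0.08, adjusted p = 0.0941). The main lactate dehydrogenase subunit Ldha averaged 13.65 with PHA and 13.65 in DMSO. Phosphoglycerate kinase, Pgk1, averaged 13.84 with PHA and 13.83 in DMSO. Ero1a, an oxidase of the endoplasmic reticulum, was above DMSO in all 3 PHA arrays without being called (0.28 ± 0.08, adjusted p = 0.0529).

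ICG moved most of the set, and in both directions. With ICG 11 of the 31 genes were called higher and 14 lower, where 11.9% of all genes were higher and 15% lower. Among genes brighter than the dimmest 30%, to which all 31 belong, 40.5% were called in either direction, and 25 of the 31 were called there too. The median size of change was 0.37 in the set and 0.14 over all genes. Among the 20 glycolysis genes 5 were higher and 11 lower. Among the 11 other hypoxia genes 6 were higher and 3 lower.

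Of the 4 transporters 3 rose and 1 fell. Slc16a1 was at 11.15, 11.48 and 11.21 with ICG, against 10.48, 10.46 and 10.45 in DMSO, and rose by 0.81 ± 0.09, or 1.76-fold (adjusted p = 0.000119). Slc16a3, the other lactate transporter and the one known as a hypoxia target, was at 6.90, 6.78 and 6.98 with ICG and at 7.27, 7.55 and 7.32 in DMSO. It fell by 0.49 ± 0.09 (adjusted p = 0.00307). The glucose transporter Slc2a1 was at 12.80, 12.84 and 12.73 with ICG and at 12.40, 12.36 and 12.42 in DMSO, a rise of 0.39 ± 0.06 (adjusted p = 0.000713). Slc2a3 rose by 0.42 ± 0.09 (adjusted p = 0.00564). For each of these 4 genes the ICG and DMSO arrays did not overlap.

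Upper glycolysis changed by isoform. Of the hexokinases, which trap glucose in the cell, Hk2 was at 11.20, 11.33 and 11.32 with ICG and at 10.87, 10.89 and 10.88 in DMSO, and rose by 0.40 ± 0.07 (adjusted p = 0.00141). Hk1 averaged 11.17 with ICG and 11.21 in DMSO and was not called, while its other bright probe set differed by -0.30. The 3 phosphofructokinase genes encode the liver, muscle and platelet subunits of the committed step. Pfkl was at 9.32, 9.12 and 9.21 with ICG and at 9.75, 9.95 and 9.80 in DMSO, and fell by 0.61 ± 0.08 (adjusted p = 0.000543). Pfkm fell by 0.40 ± 0.10 (adjusted p = 0.0154), and Pfkp rose by 0.30 ± 0.06 (adjusted p = 0.00409). Of the 2 other bright probe sets of each gene, those of Pfkl differed by -0.50 and -0.04, and those of Pfkp by 0.03 and 0.22.

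Aldoc had the largest fall of the set with ICG in the probe sets used. Its values were 7.36, 7.06 and 7.18 with ICG, against 8.19, 8.16 and 8.11 in DMSO, a fall of 0.95 ± 0.10 or 1.93-fold (adjusted p = 0.000104). Aldoa, the main aldolase of muscle and of many tumours, averaged 13.52 with ICG and 13.66 in DMSO and was not called (adjusted p = 0.106). Triosephosphate isomerase, Tpi1, was at 13.11, 13.02 and 13.08 with ICG and at 13.46, 13.43 and 13.44 in DMSO, and fell by 0.38 ± 0.05 (adjusted p = 0.000714). Both bifunctional regulator genes were lower, Pfkfb3 (-0.55 ± 0.06, adjusted p = 0.000175) and Pfkfb4 (-0.56 ± 0.08, adjusted p = 0.000665). Pfkfb4 was at 7.39, 7.15 and 7.39 with ICG and at 7.85, 7.80 and 7.95 in DMSO.

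All 6 measured enzymes from phosphoglycerate kinase to lactate dehydrogenase had a lower mean with ICG than in DMSO. Their median log2 fold change was -0.27, against 0.03 over all genes. Of the 6, 4 were called lower, where 15% of all genes were, and 2901 of the 12735 genes brighter than the dimmest 30%. Ldhb was at 7.54, 7.41 and 7.40 with ICG, against 8.32, 8.10 and 8.15 in DMSO, and fell by 0.74 ± 0.08, or 1.67-fold (adjusted p = 9.5e-05). The 3 other bright probe sets of Ldhb differed by -1.01, -0.98 and -1.30, each more than the one used for Aldoc. Pyruvate kinase, Pkm, fell by 0.35 ± 0.07 (adjusted p = 0.00351) and phosphoglycerate mutase, Pgam1, fell by 0.32 ± 0.06 (adjusted p = 0.00302). Ldha was at 13.42, 13.39 and 13.48 with ICG and at 13.65, 13.66 and 13.63 in DMSO, a fall of 0.22 ± 0.06 (adjusted p = 0.0203) that was called in 3 of the 6 fits that left out 1 array. Pgk1 (-0.12 ± 0.06, adjusted p = 0.208) and Eno2 (-0.15 ± 0.06, adjusted p = 0.102) were not called. The other bright probe sets of Pgk1 differed by -0.07 and 0.02.

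Among the other hypoxia genes Ndrg1 again changed most, now upward. It was at 11.28, 11.36 and 11.41 with ICG, against 10.82, 10.63 and 10.63 in DMSO, and rose by 0.66 ± 0.07, or 1.58-fold (adjusted p = 0.000145). Ero1a was at 11.45, 11.66 and 11.36 with ICG and at 11.01, 11.05 and 10.98 in DMSO, a rise of 0.48 ± 0.08 (adjusted p = 0.00155). Ddit4, a brake on the growth kinase mTOR, rose by 0.36 ± 0.07 (adjusted p = 0.00500) and Vegfa rose by 0.34 ± 0.08 (adjusted p = 0.0100). These 4 rises stood in every fit that left out 1 array. The other bright probe set of Vegfa differed by 0.03, and with the mean of all its probe sets Vegfa was not called (0.18, adjusted p = 0.0714).

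The mitophagy receptor Bnip3 (0.24 ± 0.06, adjusted p = 0.0166) and the main HIF prolyl hydroxylase Egln1 (0.19 ± 0.06, adjusted p = 0.0470) were called higher with ICG. Bnip3 kept its call in 3 of the 6 fits that left out 1 array and Egln1 in 0 of 6, and the other bright probe set of Egln1 showed a difference of -0.00. Ankrd37 was at 8.23, 8.23 and 8.33 with ICG, against 8.81, 8.62 and 8.49 in DMSO, and fell by 0.37 ± 0.08 (adjusted p = 0.00680). Car9 was at 6.58, 6.51 and 6.51 with ICG and fell by 0.23 ± 0.05 (adjusted p = 0.0107), its DMSO arrays lying between 6.73 and 6.79. Pdk3, a kinase that keeps pyruvate out of the mitochondria by switching off pyruvate dehydrogenase, fell by 0.43 ± 0.11 (adjusted p = 0.0174). Egln3 was not called (-0.14 ± 0.07, adjusted p = 0.174). Pdk1, a relative of Pdk3, depended on the probe set. The one used was not called (-0.13 ± 0.07, adjusted p = 0.217), while its 2 other bright probe sets differed by -0.52 and -0.67, and the mean of all its probe sets was called lower (-0.35, adjusted p = 0.00449).

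**Figure D2:**
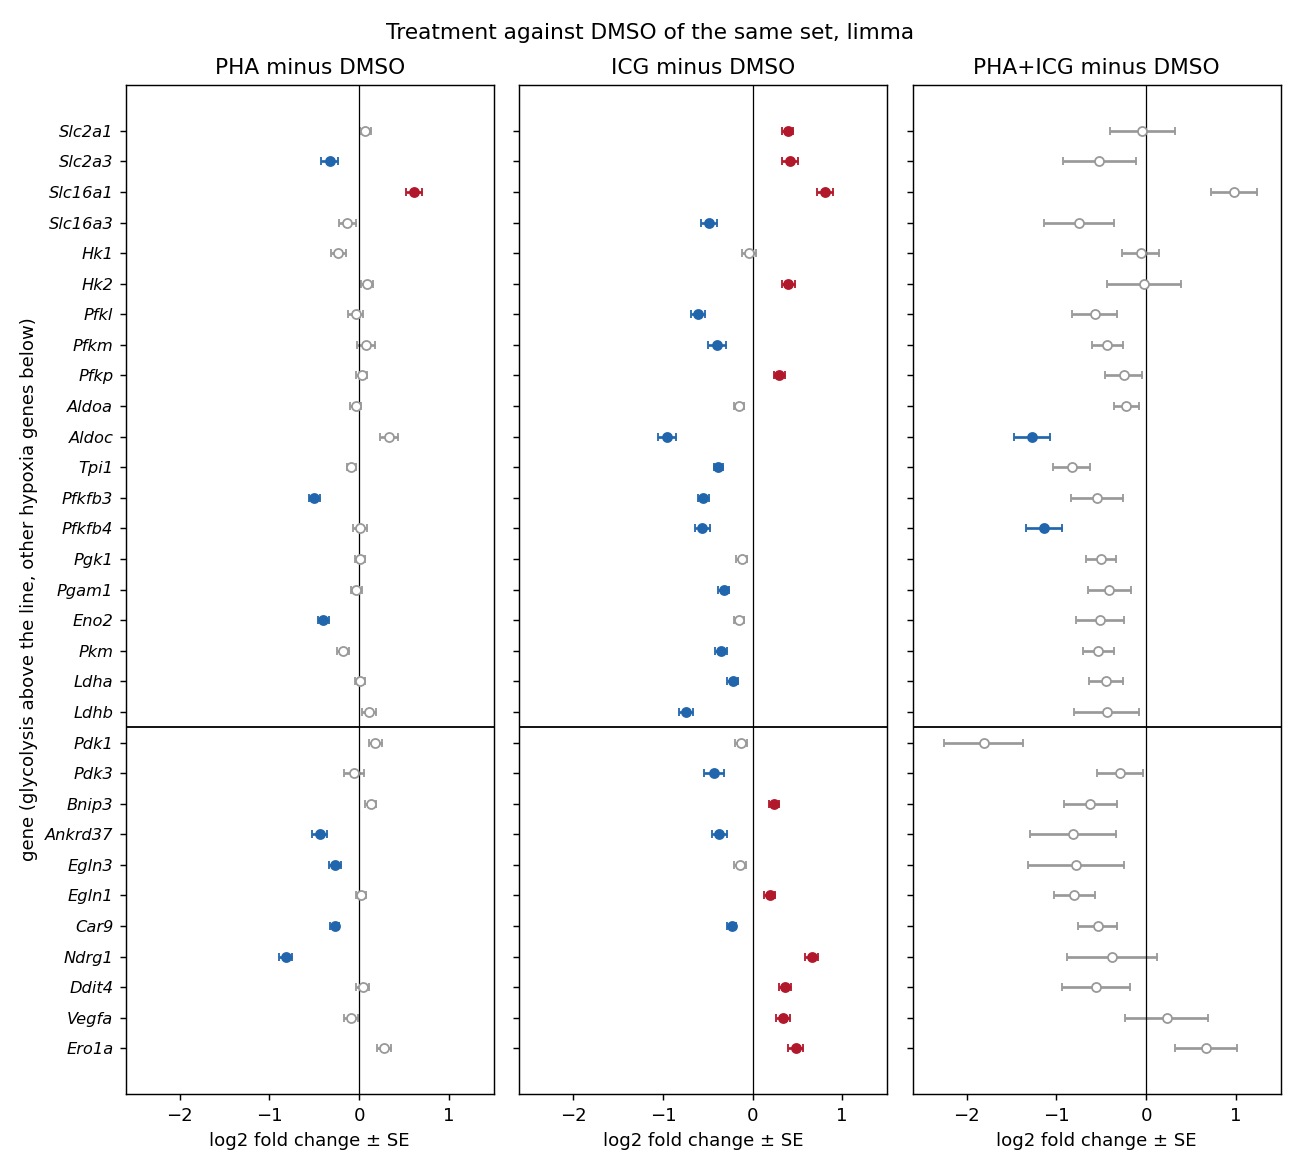
Log2 fold change against DMSO of the same set with its SE from limma, for each of the 31 genes (rows) and each treatment (panels). Filled points passed an adjusted p of 0.05 over all 18193 genes, red above DMSO and blue below. ICG has 25 filled points on both sides of 0, PHA has 8, and PHA+ICG has 2 with wider errors.

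The means of both gene groups describe this split. With ICG the 20 glycolysis genes averaged -0.18 and the 11 other hypoxia genes 0.09 relative to DMSO on the log2 scale. The difference between both means was -0.27 in each of the 3 ICG arrays, and -0.03, 0.02 and 0.01 in the 3 DMSO arrays. With PHA the means were -0.03 and -0.12, and their difference was 0.10, 0.08 and 0.08 in the 3 arrays. With 3 arrays against 3 an exact two-sided permutation test cannot go below 0.1, so no test of these means is given.

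Other cell and growth markers moved with ICG as well. All 10 proliferation markers were called lower, Top2a most (-3.48 ± 0.27, adjusted p = 2.38e-05), and their mean was 5.10 to 5.59 in ICG and 7.29 to 8.29 in DMSO. Of 10 fibroblast markers 9 were called lower, and their mean was 9.16 to 9.81 with ICG and 10.51 to 11.12 in DMSO. Of 10 leukocyte markers 7 were called lower, C1qb most (-2.75 ± 0.32, adjusted p = 0.000206). Of 10 epithelial markers 3 were called higher and 4 lower, between -0.40 and 0.48, and their mean was 8.90 to 8.97 with ICG and 8.90 to 9.00 in DMSO. The 3′ control probe set of Gapdh, the glycolytic enzyme often used as a reference, was at 13.92 to 13.97 with ICG and at 14.13 to 14.17 in DMSO. The 3′ minus 5′ difference of the Gapdh controls, a sign of RNA quality, was 0.141 to 0.220 with ICG and 0.0675 to 0.157 in DMSO. The part of these shifts in the glycolysis and hypoxia values was not tested. With PHA 6 of the fibroblast, 3 of the leukocyte, 1 of 7 endothelial and 1 of the proliferation markers were called lower, where 7.07% of all genes were. Of the epithelial markers 2 were called higher and 3 lower with PHA, between -0.98 and 0.49.

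A direct comparison of PHA with ICG separated the inhibitors at 19 of the 31 genes. Of these 11 were higher with PHA than with ICG, where 13.7% of all genes were, and 8 were lower, where 13.4% were. Among the 12735 genes brighter than the dimmest 30%, 2692 were higher and 2636 lower. Tested among these, 12 of the 31 were higher and 9 lower. Ndrg1 was at 9.81 to 9.92 in PHA arrays and at 11.28 to 11.41 in ICG arrays, 2.79-fold lower with PHA (-1.48 ± 0.07, adjusted p = 1.53e-06). Aldoc was 2.43-fold higher with PHA (1.28 ± 0.10, adjusted p = 1.71e-05) and Ldhb 1.80-fold higher (0.85 ± 0.08, adjusted p = 3.86e-05). The other bright probe sets of Ldhb differed by 1.22, 1.04 and 1.54. Slc2a3 was lower with PHA (-0.75 ± 0.09, adjusted p = 0.000189), as was Vegfa (-0.44 ± 0.08, adjusted p = 0.00242), whose other bright probe set differed by 0.07. Pdk1 was higher with PHA (0.32 ± 0.07, adjusted p = 0.00947) with 0.71 and 0.83 in its other bright probe sets.

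For other members the inhibitors did not differ past the threshold. The difference of PHA minus ICG was -0.20 ± 0.09 for Slc16a1 (adjusted p = 0.119), 0.05 ± 0.06 for Pfkfb3 (adjusted p = 0.625), -0.06 ± 0.08 for Ankrd37 (adjusted p = 0.631) and -0.03 ± 0.05 for Car9 (adjusted p = 0.725). Each of these 4 genes was called in the same direction with PHA and with ICG, in comparisons that share their 3 DMSO arrays. Most calls of the first set depend on the use of its own spread: with the spread pooled over all 15 arrays 0 genes of the set were called with PHA, 3 with ICG (Slc16a1 higher, Aldoc and Pfkfb4 lower) and 4 between them.

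**Figure D3:**
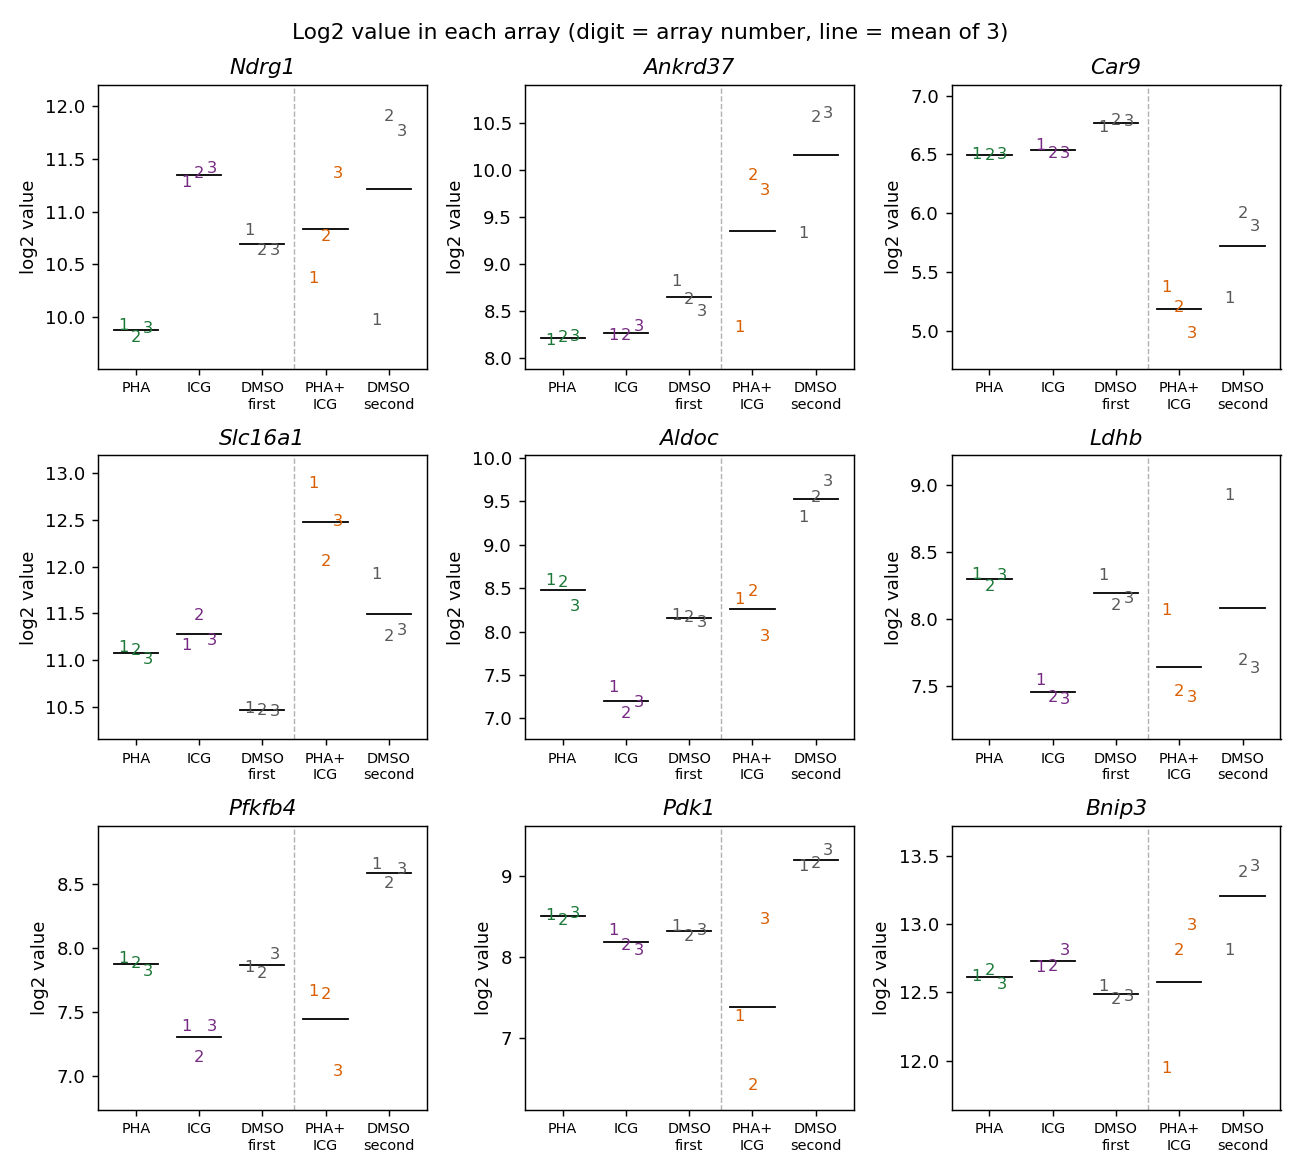
Log2 value of 9 genes in each array, with digits giving the array number and lines the mean of 3 arrays, and the dashed line separating both sets. Ndrg1 lies below DMSO with PHA and above it with ICG, Aldoc and Pfkfb4 lie below DMSO with ICG and with PHA+ICG, and Ndrg1 and Ankrd37 are much lower in array 1 of second-set DMSO than in arrays 2 and 3.

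PHA+ICG lowered 2 genes of the set past the threshold, both also lower with ICG alone. Aldoc was at 8.37, 8.46 and 7.94 in the PHA+ICG arrays, against 9.31, 9.55 and 9.73 in second-set DMSO, and fell by 1.27 ± 0.20, or 2.42-fold (adjusted p = 0.0198). Pfkfb4 was at 7.66, 7.64 and 7.04 with PHA+ICG, against 8.65, 8.5 and 8.61 in DMSO, and fell by 1.14 ± 0.20, or 2.20-fold (adjusted p = 0.0324). Of all genes 0.478% were called higher and 1.54% lower, 87 and 281 genes, and after quantile normalization 131 and 248. Without second-set DMSO array 2 or DMSO array 3 neither call remained. Aldoc also lost its call without PHA+ICG array 3, and Pfkfb4 kept it in 1 of the 6 fits that left out 1 array.

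In the second set, arrays with the same number deviated together, with correlations of 0.61, 0.36 and 0.28. They were treated as pairs in an alternative fit, while the fit above used group means only. Array 2 of one group and array 3 of the other correlated about as much, at 0.35 for PHA+ICG array 2 with DMSO array 3 and 0.24 for PHA+ICG array 3 with DMSO array 2, so that the numbers set apart array 1 alone. With the replicate number as a block 9 genes of the set were called, 1 higher and 8 lower, where 1.92% and 6.01% of all genes were. The genes lower in the blocked fit were Aldoc, Pfkfb4, Tpi1, Slc16a3, Pdk1, Bnip3, Ankrd37 and Egln1, and the gene higher was Slc16a1. Slc16a1 was at 12.89, 12.05 and 12.48 with PHA+ICG and at 11.91, 11.25 and 11.32 in DMSO, so that the pairs differed by 0.98, 0.80 and 1.17 (adjusted p = 0.122 without the block and 0.00447 with it). Tpi1 was at 12.29, 12.19 and 12.82 with PHA+ICG and at 13.08, 13.39 and 13.31 in DMSO (-0.83, adjusted p = 0.0964 without the block and 0.0188 with it).

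The probe set used for Pdk1 had the largest difference of the set. It was at 7.27, 6.42 and 8.47 with PHA+ICG, against 9.12, 9.16 and 9.32 in DMSO, with pair differences of -1.85, -2.74 and -0.85. The groups did not overlap, but the PHA+ICG arrays spread over more than the difference of the third pair. Its log2 fold change was -1.81, with an SE of 0.44 without the block (adjusted p = 0.0900) and 0.29 with it (adjusted p = 0.00362). The 2 other bright probe sets of Pdk1 differed by -1.03 and -1.22, less than the fall of Aldoc.

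Bnip3 was at 11.94, 12.81 and 12.99 with PHA+ICG and at 12.81, 13.38 and 13.42 in DMSO (-0.62, adjusted p = 0.442 without the block and 0.0452 with it). Egln1 was at 9.04, 9.43 and 9.82 with PHA+ICG and at 9.98, 10.32 and 10.40 in DMSO (-0.80, adjusted p = 0.143 and 0.0131). Ankrd37 was at 8.32, 9.94 and 9.78 with PHA+ICG and at 9.32, 10.55 and 10.60 in DMSO (-0.81, adjusted p = 0.588 and 0.0128). In these genes array 1 was the lowest of its group on both sides. Slc16a3 differed by -0.75 (adjusted p = 0.493 without the block and 0.0270 with it), with pairs at -1.08, -0.41 and -0.77.

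The direction was shared by most of the set. In 28 of the 31 genes the mean was lower with PHA+ICG than in DMSO, and the median log2 fold change was -0.51, against 0.00 over all genes. In 10 of the 31 all PHA+ICG arrays lay below all DMSO arrays, where 11% of all genes did so. These included all 3 of Pgk1, Pkm and Ldha, with log2 fold changes of -0.50 ± 0.17, -0.53 ± 0.17 and -0.45 ± 0.19, none of them called. The 3 genes with a positive mean difference were Slc16a1, Ero1a (0.67 ± 0.35) and Vegfa (0.23 ± 0.46), whose other bright probe set differed by -0.25. Ero1a rested on array 1, where the pair differed by 1.51, against 0.09 and 0.42 in the other pairs. The glycolysis genes averaged -0.43 and the other hypoxia genes -0.52, and the difference of these means was 0.20, 0.35 and -0.27 in the 3 PHA+ICG arrays and 0.33, -0.17 and -0.16 in the DMSO arrays.

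Several members differed so much among the second-set arrays that their change could not be fixed. Ndrg1 was at 10.37, 10.76 and 11.36 with PHA+ICG and at 9.97, 11.90 and 11.76 in DMSO, with pair differences of 0.40, -1.14 and -0.41. Ddit4 was at 12.13, 10.46 and 11.60 with PHA+ICG and at 12.16, 11.90 and 11.79 in DMSO. Egln3 ran from 8.56 to 10.11 with PHA+ICG and from 8.87 to 10.75 in DMSO. Slc2a1 (-0.04 ± 0.36), Hk2 (-0.02 ± 0.41) and Hk1 (-0.06 ± 0.21) had mean differences near 0 with wide errors. The rest of the enzymes, Pfkl, Pfkm, Pfkp, Aldoa, Pfkfb3, Pgam1, Eno2 and Ldhb, had differences between -0.57 and -0.22. None of them was called with or without the block. The other bright probe sets of Ldhb differed by -0.79, -0.62 and -1.02. Slc2a3 (-0.52 ± 0.41), Pdk3 (-0.29 ± 0.26) and Car9 (-0.54 ± 0.22) were not called either, Car9 with pairs at 0.08, -0.80 and -0.92. Its values were near the level of 5.33, at 5.37, 5.20 and 4.98 with PHA+ICG and 5.28, 6.00 and 5.89 in DMSO.

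Without both arrays numbered 1, an alternative added after these values were seen, 4 genes were called: Slc16a1 higher (0.98, adjusted p = 0.0330) and Aldoc (-1.44, adjusted p = 0.00868), Pfkfb4 (-1.21, adjusted p = 0.0212) and Car9 (-0.86, adjusted p = 0.0397) lower. Car9 was at 5.20 and 4.98 in PHA+ICG arrays 2 and 3, below the level of 5.33. The marker lists moved with PHA+ICG too. Of the 10 proliferation markers 6 were called lower, and their mean was 6.70 to 7.47 with PHA+ICG and 8.59 to 8.72 in DMSO. Of the 10 fibroblast markers 1 was called lower and all 10 had negative differences, with a median of -0.54, and their mean was 11.28 to 11.58 with PHA+ICG and 11.95 to 12.21 in DMSO. Epithelial markers averaged 9.15, 8.12 and 8.05 in PHA+ICG arrays 1, 2 and 3, against 9.13, 9.12 and 9.11 in DMSO. Leukocyte markers averaged 8.60, 6.63 and 6.68 with PHA+ICG and 9.79, 7.66 and 7.57 in DMSO. The 3′ minus 5′ difference of the Gapdh controls was 0.443, 0.685 and 0.0789 in PHA+ICG arrays 1, 2 and 3, against 0.128, 0.145 and 0.272 in DMSO. The part of these shifts in the glycolysis and hypoxia values was not tested.

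The combination was set against each inhibitor alone as a difference of effects, each against its own DMSO. This fit across both sets, also used between the vehicle groups, made more false calls on simulated data than its threshold allows. Relative to the effect of ICG, 0 of the 31 genes were called by limma, where 0.121% of all genes were higher and 0.264% lower. Of the 31, 10 had an unadjusted p under 0.05, where 1286 of all 18193 genes did. With the replicate block 3 were called lower, all of them hypoxia genes outside glycolysis: Pdk1 (-1.68, adjusted p = 0.0198), Bnip3 (-0.87, adjusted p = 0.0307) and Egln1 (-0.99, adjusted p = 0.0150). The 2 other bright probe sets of Pdk1 gave -0.52 and -0.55, and the other one of Egln1 gave -0.96. Without both arrays numbered 1 the calls were Ndrg1 (-1.43, adjusted p = 0.00744), Egln1 (-0.93, adjusted p = 0.0324) and Slc2a3 (-1.09, adjusted p = 0.0338). Egln1 stood in both of these alternatives. Slc16a1 differed by 0.17 ± 0.27 and Pfkl by 0.04 ± 0.26, intervals too wide to show that the effects are alike.

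Relative to the effect of PHA, 4 genes were lower with the combination, where 1.08% of all genes were higher and 1.66% lower. These were Pdk1 (-1.99 ± 0.37, adjusted p = 0.00908), Aldoc (-1.61 ± 0.25, adjusted p = 0.00291), Pfkfb4 (-1.15 ± 0.22, adjusted p = 0.00991) and Tpi1 (-0.74 ± 0.18, adjusted p = 0.0461). The other bright probe sets of Pdk1 gave -1.22 and -1.38. Aldoc kept its call in all 12 fits that left out 1 array, Pdk1 in 11, Pfkfb4 in 10 and Tpi1 in 1. Without second-set DMSO array 3 only 1 of the 4 calls remained. Both sets differ in more than treatment, so a difference of effects between them cannot be told apart from a difference between the sets.

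The log2 fold changes with ICG and with PHA+ICG come from separate arrays and separate DMSO controls. Over the 31 genes they correlated with a Pearson r of 0.59 and a Spearman rho of 0.53, as a description across genes that are not independent. Within the 20 glycolysis genes r was 0.80 and rho 0.73. Within the 11 other hypoxia genes r was 0.46 and rho 0.40. Of the 20 glycolysis genes 15 were negative in both comparisons, 1 positive in both (Slc16a1) and 4 positive with ICG and negative with PHA+ICG. Those 4 were Slc2a1, Slc2a3, Hk2 and Pfkp, which ICG alone raised. Likewise Bnip3, Egln1, Ndrg1 and Ddit4 were positive with ICG and negative with PHA+ICG.

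The vehicle spheres of both sets differed in these genes before any inhibitor is considered. In second-set DMSO 13 of the 31 were higher than in first-set DMSO and 2 lower, where 11.8% of all genes were higher and 11.8% lower. Median centring split the calls over all genes into 1689 higher and 2716 lower, against 2143 and 2140, and left 10 of the 31 higher and 2 lower. Slc2a3 was at 9.95, 11.27 and 11.39 in the second set, against 7.90, 7.98 and 7.83 in the first, 7.81-fold higher (2.96 ± 0.26, adjusted p = 7.5e-07). Ankrd37 (1.51 ± 0.29, adjusted p = 0.00119), Ero1a (1.40 ± 0.23, adjusted p = 0.000253) and Aldoc (1.38 ± 0.18, adjusted p = 3.03e-05) were also higher. So were Egln3, Slc16a1, Pdk1, Ddit4, Pfkfb4, Bnip3, Eno2, Pfkp and Egln1, with log2 differences from 1.18 to 0.48. Pfkfb3 was lower (-1.60 ± 0.18, adjusted p = 9.77e-06), and so was Car9 (-1.04 ± 0.14, adjusted p = 4.71e-05), both known HIF targets. The other bright probe set of Pfkfb3 differed by 0.16, and Car9 was near the level of 5.33 in second-set DMSO (5.28, 6.00 and 5.89). Without second-set DMSO array 2 or array 3 the count was 8, and the culture, the day and the normalization of a set cannot be told apart.

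The higher level lay mostly in arrays 2 and 3 of the second set. The 11 other hypoxia genes averaged 10.60 and 10.59 in second-set DMSO arrays 2 and 3 and 9.77 in array 1, against 9.63 to 9.71 in first-set DMSO. In array 1 of second-set DMSO 25 of the 31 genes lay below the mean of arrays 2 and 3, where 10303 of all 18193 genes did. Of the 31, 8 lay below by over 1 on the log2 scale, where 230 of all genes did. In the PHA+ICG group 24 of the 31 lay below, 3 of them by over 1, and all genes were not counted there. Leukocyte markers ran the other way, with 9.79 in DMSO array 1 and 7.66 and 7.57 in arrays 2 and 3, and their part was not tested.

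**Figure D4:**
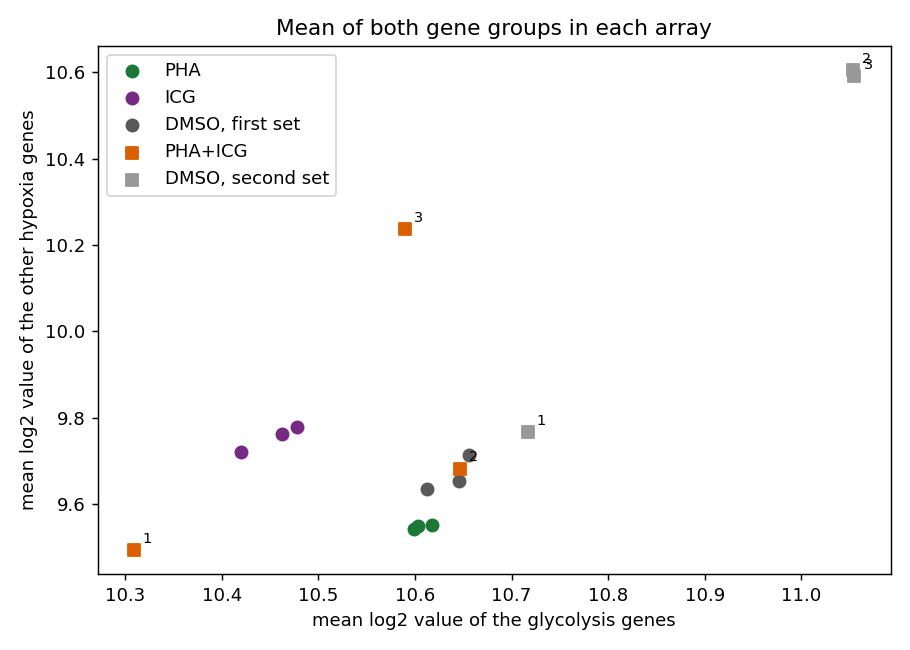
Mean log2 value of the 20 glycolysis genes (x axis) and of the 11 other hypoxia genes (y axis) in each of the 15 arrays, circles for the first set and squares, with array numbers, for the second. The ICG arrays lie left of first-set DMSO and slightly above it, the PHA arrays lie below it, and DMSO arrays 2 and 3 of the second set lie far to the upper right of DMSO array 1.

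Calls were made for 4 of the 13 regulators of the HIF pathway against DMSO. Hif1a, an oxygen-sensitive α subunit, differed by -0.00 ± 0.06 with PHA (adjusted p = 0.983), rose by 0.22 ± 0.06 with ICG (adjusted p = 0.0250) and differed by -0.23 ± 0.15 with PHA+ICG (adjusted p = 0.658). Its call with ICG was kept in 2 of the 6 fits that left out 1 array. Epas1, the other main α subunit, differed from DMSO by 0.01 ± 0.21 in PHA arrays, -0.18 ± 0.21 in ICG arrays and -0.18 ± 0.26 in PHA+ICG arrays and was not called. With PHA the regulator called was Arnt2, a partner of the α subunits, which was lower (-0.76 ± 0.08, adjusted p = 0.000335). That count, 1 of 13, is near the 7.07% of all genes called lower. With ICG the 3 called were higher, where 11.9% of all genes were: Hif1a, Cited2 (0.32 ± 0.10, adjusted p = 0.0462) and Cul2 (0.22 ± 0.06, adjusted p = 0.0212). Among the 12735 genes brighter than the dimmest 30%, to which all 13 belong, 2263 were higher with ICG. With PHA+ICG 1 was called, Arnt2, now higher (0.86 ± 0.15, adjusted p = 0.0308, kept in 0 of 6 fits that left out 1 array). Of all genes 0.478% were higher there.

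Of 26 further HIF targets outside the set, 3 were higher and 2 lower with PHA, 9 higher and 4 lower with ICG, and 1 higher and 2 lower with PHA+ICG. Of all genes 3.14% were higher and 7.07% lower with PHA, 11.9% and 15% with ICG, and 0.478% and 1.54% with PHA+ICG, so that the shares called lower with PHA and with ICG were near those of all genes. Among the 12735 genes brighter than the dimmest 30%, to which all 26 belong, 766 were higher and 1470 lower with PHA. With ICG 2263 of those genes were higher and 2901 lower. Angptl4, an inhibitor of lipoprotein lipase, was higher with PHA (0.94 ± 0.11, adjusted p = 0.000699) and with ICG (1.41 ± 0.11, adjusted p = 2.38e-05). The vasoconstrictor peptide gene Edn1 was lower with PHA (-0.63 ± 0.15, adjusted p = 0.0273) and with ICG (-0.69 ± 0.15, adjusted p = 0.00744). The collagen cross-linking enzyme Lox was lower with ICG (-0.66 ± 0.17, adjusted p = 0.0173) and with PHA+ICG (-0.86 ± 0.17, adjusted p = 0.0444). Mxi1, an antagonist of Myc, was lower with PHA+ICG (-1.04 ± 0.20, adjusted p = 0.0411). In second-set DMSO 11 of the 26 were higher than in first-set DMSO and 2 lower, where 11.8% of all genes were higher and 11.8% lower. Ppp1r3c, which targets a phosphatase to glycogen, had the largest rise there (5.59 ± 0.26, adjusted p = 9.3e-10).

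Of 11 further glycolysis genes 2 were lower with PHA, where 2236 of the 12735 genes brighter than the dimmest 30% were called in either direction. With ICG 2 were higher and 3 lower, where 40.5% of these brighter genes were called. Each count is near the background of its own treatment. Eno3, the muscle enolase, was lower with PHA (-0.47 ± 0.07, adjusted p = 0.00236) and with ICG (-0.32 ± 0.07, adjusted p = 0.00628). Tigar, which breaks down the activator of phosphofructokinase, was higher with ICG (0.61 ± 0.08, adjusted p = 0.000279). Bpgm, which makes bisphosphoglycerate, was lower with ICG (-0.49 ± 0.11, adjusted p = 0.00820). With PHA+ICG limma called 0 of the 11, and 3 had an unadjusted p under 0.05, where 2426 of all 18193 genes did.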

How the data were processed

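Values of 45101 probe sets on 15 arrays were used as deposited by the authors, on a log2 scale. The submitters' processing notes name MAS5 and RMA without versions or roles, and which of them made these values is not given in the sources used here. Array means were 6.254 to 6.355 in the second set and 6.256 to 6.258 in the first, and whether both sets were normalized together is not stated. Genes were named from the platform annotation: 34945 probe sets had 1 symbol, 932 had several and 9160 none, and 64 controls were left out. For each of 18193 genes the probe set with the highest mean was used.

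limma 3.58.1 (R 4.3.3) was fitted to each set alone (lmFit, eBayes), because the residual spread of the second set was 2.22 times that of the first. Comparisons across sets used all 15 arrays with a weight for each set. On simulated data the fits within a set kept close to their threshold, while the weighted fit made more false calls than its threshold allows. Fold changes are treated minus DMSO, the effect of the combination minus that of a single inhibitor, PHA minus ICG, or second minus first set. Genes were called at an adjusted p under 0.05 over all genes.

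Same-numbered arrays of the first set correlated between -0.26 and 0.12 and were not treated as pairs. The genes and lists were chosen with earlier results of these data known. All genes of the set are named, and up to 4 called genes, by size, of each other list. Python 3.11.15, numpy 2.4.6, pandas 2.3.3 and matplotlib 3.10.9 made the tables and figures. Alternatives were a pooled spread, quantile normalization, median centring, the mean of a gene's probe sets, leaving out the dimmest 30% of genes, a replicate block and leaving out single arrays.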

Additional observations from a re-analysis of the deposited data

How the results depend on the processing

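No gene of the set that was called against DMSO changed sign under any alternative tried. With 1 pooled spread for all 15 arrays the set had 0 calls with PHA (8 in the fits given above), 3 with ICG (25), 4 between PHA and ICG (19) and 11 with PHA+ICG (2). Over all genes that setting gave 182, 1255, 1463 and 2413 calls, against 1858, 4896, 4939 and 368, and for the difference between the effects of PHA+ICG and ICG 160 against 70, and relative to the effect of PHA 860 against 499. The paired fit with a replicate block in the second set gave 9 calls with PHA+ICG (1442 over all genes) and 3 against the effect of ICG (197 over all genes), and 958 over all genes against 499 relative to the effect of PHA. In the first set, whose numbers do not pair the arrays, a block gave 6 calls with PHA and 23 with ICG, losing Slc2a3, Egln3, Ldha and Egln1, and 1202 over all genes with PHA.

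Without both arrays numbered 1 of the second set, chosen after seeing the data, there were 4 calls with PHA+ICG (886 over all genes) and 3 against the effect of ICG (242 over all genes). The mean of all probe sets of a gene ended the calls of Slc2a3, Pfkfb3 and Egln3 with PHA and of Pfkp, Egln1 and Vegfa with ICG, and added Hk1 with PHA, Pdk1 with ICG and Slc16a1 with PHA+ICG. Leaving out the dimmest 30% of genes gave 38 calls over all genes relative to the effect of ICG. Quantile normalization left 3 genes of the set higher and 5 lower with PHA, against 1 and 7. It gave 1960 and 2859 between the vehicle groups, against 2143 and 2140, where median centring gave 1689 and 2716, and 769 relative to the effect of PHA, against 499.

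The mean of the glycolysis genes minus that of the other hypoxia genes was 0.08 with PHA and -0.27 with ICG after quantile normalization, and 0.10 and -0.25 with the mean of all probe sets. Leaving out 1 array at a time gave 5 to 8 calls with PHA (5 without DMSO array 2 or PHA array 2), 22 to 24 with ICG, 16 to 21 between them, 0 to 2 with PHA+ICG, 0 to 2 against the effect of ICG (2 without second-set DMSO array 1 or PHA+ICG array 3), 1 to 4 against that of PHA, and 8 to 18 between the vehicle groups. The same fits gave 0.07 to 0.10, -0.29 to -0.26 and -0.03 to 0.27 for the difference of both means with PHA, ICG and PHA+ICG. The cause of these shifts was not tested.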

Other observations

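Further lists held enzymes that take carbon beyond pyruvate or aside from glycolysis. Of 26 genes of pyruvate dehydrogenase and the TCA cycle 2 were higher and 7 lower with ICG. With PHA 1 was higher and 1 lower, where 3.14% and 7.07% of all genes were. The count with ICG is not above that of genes brighter than the dimmest 30%, of which 40.5% were called, and 25 of the 26 belong to these. Set against each other, PHA gave higher levels than ICG at 11 of the 26, where 13.7% of all genes were higher. Lower levels were found at 2, where 13.4% of all genes were lower. Among the 12735 genes brighter than the dimmest 30%, 2692 were higher and 2636 lower. The mitochondrial isocitrate dehydrogenase Idh2 was lower with ICG (-0.91 ± 0.06, adjusted p = 1.33e-05) and with PHA (-0.30 ± 0.06, adjusted p = 0.0150). Suclg1, a subunit of succinate-CoA ligase, fell by 0.68 ± 0.07 with ICG (adjusted p = 7.57e-05). None of the 26 was called with PHA+ICG by limma, and 7 had an unadjusted p under 0.05, where 2426 of all 18193 genes did. With the replicate block 3 were called lower there, where 6.01% of all genes were. In vehicle spheres the pyruvate dehydrogenase kinase Pdk4 was higher in the second set than in the first (3.12 ± 0.38, adjusted p = 1.95e-05).

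Pck2, the mitochondrial phosphoenolpyruvate carboxykinase of gluconeogenesis, rose by 1.42 ± 0.07 with ICG (adjusted p = 1.44e-06). It was the only gene called with ICG among 7 of its list, where 11.9% of all genes were higher and 15% lower. With PHA 2 of these 7 were called higher, where 3.14% of all genes were. In second-set DMSO 3 were higher than in first-set DMSO, where 11.8% of all genes were. Of the 7, 4 had a mean level above 5.33, while Fbp1, Pck1 and G6pc lay below it. Among 6 pentose phosphate enzymes the second oxidative step Pgd rose by 0.69 ± 0.09 with ICG (adjusted p = 0.000471). Transketolase, Tkt, fell by 0.56 ± 0.08 (adjusted p = 0.000694) and the ribose phosphate isomerase Rpia fell by 0.42 ± 0.08 (adjusted p = 0.00277). Of the 6, 1 was thus higher and 2 lower with ICG, where 11.9% and 15% of all genes were. With PHA limma called 0 of these 6, and 0 had an unadjusted p under 0.05, where 4634 of all 18193 genes did.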
